A study of Homo sapiens with 8 samples.

Results

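MSP3, one of 3 mesenchymal subpopulations of the HMLE line, was compared with the other two, MSP1 and MSP2. HMLE is an established line of immortalized human mammary epithelial cells, grown in MEGM medium, and RNA was measured on single-colour Affymetrix arrays. The comparison was chosen by array title and took 6 of the 8 arrays of the series, an array a and an array b of each subpopulation, set side by side by their letter. The 2 arrays of the cells sorted for CD24 (CD24hi) stayed out of every test. All 6 arrays thus came from cells of one line in one medium, with no treatment named, and the labels do not say how the 3 subpopulations were obtained or how they differ in origin. Whether array a and array b stem from different cultures is not stated either, and the p-values therefore cover the spread among these 6 arrays alone, part or all of which may be technical.

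Epithelial cells that pass through an epithelial-mesenchymal transition lose cadherin-based and desmosomal junctions, replace keratin filaments by vimentin, and lay down fibronectin, collagens and proteoglycans. Transcription factors such as those of the ZEB family repress the epithelial genes in this programme. Mesenchymal cells derived from one line can still differ in their homeobox and T-box factors, growth factor receptors and matrix, the gene groups described here.

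Each array gave a signal for 54613 probe sets without controls, with a median between 17.42 and 18.97 on the 6 arrays, and between 57.6% and 59.0% of the probe sets lay under 32 signal units. With 2 arrays a group, precision is set by that number. Tested were 18479 probe sets whose geometric mean signal reached 64 over the MSP3 arrays or over the other 4. Of these, 591 passed through MSP3 alone and 337 through MSP1 and MSP2 alone. Such probe sets had to differ, so counts over them are descriptions. A gene symbol was at hand for 5365 of the tested probe sets, which stood for 3925 genes, each represented by its brightest probe set; the other 13114 enter only counts. A level is a geometric mean signal, and a change is a log2 difference ± SE of the fit, with 2 arrays a group and a Benjamini-Hochberg adjusted p over all tested probe sets; under 0.05 it was called. Levels under 32 were treated as dim, and a fold against a dim level is the brighter level over 32, written "at least".

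The mesenchymal label of MSP3 was checked on epithelial and mesenchymal marker genes. CDH1, the E-cadherin gene, read 10.1 on MSP3 a and 23.7 on MSP3 b, against 2.06 to 13.7 on the other arrays, all within the dim range. EPCAM and ESRP1, an epithelial adhesion molecule and an epithelial splicing regulator, were also under 32 on all 6 arrays, as were 8 of 12 epithelial markers in all. VIM, vimentin, read 11130 and 8277 in MSP3 against 8002 to 9917 in the others. CDH2, N-cadherin, read 792 and 1114 against 588 to 994, and ZEB1 read 354 and 419 against 397 to 649. Of the 11 mesenchymal markers tested, 0 were called by limma between MSP3 and the mean of the others. FN1, fibronectin, was above all 4 other arrays at 6743 and 4895 (change 0.47 ± 0.11, adjusted p = 0.220), and did not pass. Two-sided markers went the other way as well: TWIST1 and COL1A1 lay below all 4 other arrays. TWIST1 read 522 and 704 against 758 to 819, and COL1A1 read 6731 and 7318 against 7493 to 8021. LUM was dim in MSP3, at 14.9 and 6.32, against 11.8 to 79.0 elsewhere. Keratins were not absent from MSP3: KRT18 read 321 and 287, against 255 to 316 elsewhere, and KRT14 read 4831 and 2955, against 2386 to 4445. The sum of the 12 epithelial markers ran from 3634 to 5705 in MSP3, from 2820 to 3026 in MSP1 and from 3669 to 5414 in MSP2, with KRT14 the largest part on every array. Marker sums of endothelial cells ran from 82.7 to 107.5 in MSP3 and from 76.8 to 106.9 in the others, those of leukocytes from 114.5 to 118.4 and from 94.4 to 115, and those of myoepithelial cells from 444 to 1287 and from 393 to 1270. FABP4, a fatty acid binding protein and the only adipocyte marker with a named probe set, read 73.7 and 75.1 in MSP3 against 1.86 to 16.9 in the others; it passed the filter through MSP3 alone and was not called (level at least 2.32-fold higher, adjusted p = 0.0938). The part of these markers in the results below was not tested.

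The letter was the widest source of difference among the 6 arrays. The first principal component held 57.4% of the variance and put the 3 arrays a on one side and the 3 arrays b on the other. The second component held 19.6% and set both MSP2 arrays apart, at -23.6 and -27.6, with MSP3 at 10.6 and 5.05 between them and MSP1, at 21.8 and 13.7. MSP3 stood apart on the third component, which held 12.8% of the variance, at 20.3 and 19.3 against -21.1 to -0.63 for the other 4 arrays. Between arrays a and b, 6.67% of tested probe sets differed over 2-fold in MSP3, 5.90% in MSP2 and 2.18% in MSP1. The arrays were paired by this letter, which stood as a block in the fit, and what it marks is not given in the labels.

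**Figure D1:**
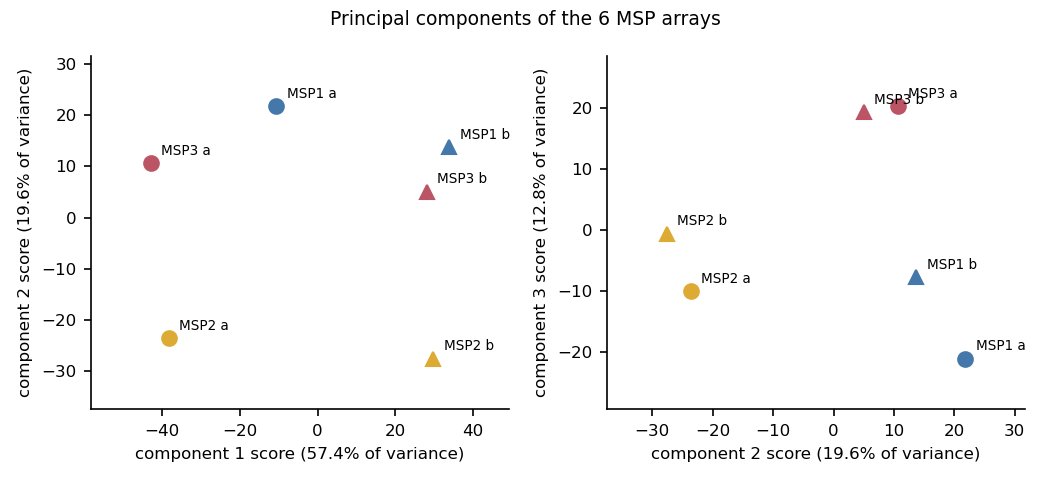
Principal component scores of the 6 MSP arrays over the tested probe sets, component 2 against 1 on the left and 3 against 2 on the right, with circles for array a and triangles for array b and a colour for each subpopulation. The letter separates the arrays along component 1 (57.4% of variance) and MSP3 stands alone at 20.3 and 19.3 on component 3 (12.8%).

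MSP3 differed from the mean of MSP1 and MSP2 in 135 of 18479 probe sets, or 0.731%, of which 96 were higher (0.52%) and 39 lower (0.211%). The higher ones changed by 0.74 to 3.92 with a median of 1.25, and the lower ones by -3.41 to -0.74 with a median of -1.06, as fitted and with dim levels included, while the median over all tested probe sets was 0.01. Without the letter as a block 0 probe sets were called by limma, with 439 at an unadjusted p under 0.05 against 1858 with the block, so every call against the mean rests on pairing the arrays by letter; without it 1 probe set was called against MSP2 and 0 against MSP1. The count also rests on the arrays of MSP3: without MSP3 a, 14 probe sets were called, and without MSP3 b, 26. Leaving out MSP2 a gave 65 and MSP2 b 86, while leaving out MSP1 a gave 327 and MSP1 b 634. With all 8 arrays in the fit, or with no filter on signal, the count was 0, and with MSP1 and MSP2 pooled as 1 group it was 1.

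Set against each other subpopulation, MSP3 differed from MSP1 in 138 probe sets (0.747%), with 118 higher (0.639%) and 20 lower (0.108%), and from MSP2 in 193 (1.04%), with 103 higher (0.557%) and 90 lower (0.487%). The 2 comparisons share the MSP3 arrays. Against MSP1 the calls thus lay mostly on the side of MSP3, and against MSP2 they were split. A probe set was taken as set apart in MSP3 when it was called in the same direction against both, which 31 probe sets were (0.168%), 25 of them higher and 6 lower. By the same measure 80 probe sets (0.433%) were set apart in MSP1, 7 of them higher and 73 lower, and 105 (0.568%) in MSP2, 63 higher and 42 lower. The filter took MSP3 by itself but MSP1 and MSP2 jointly. A probe set high in MSP3 alone thus passed more readily than one high in MSP1 or MSP2 alone. The counts and directions are therefore not on an equal footing across the subpopulations. Of the 96 probe sets higher than the mean, 70 had both MSP3 arrays above all 4 others, where 775 of all tested probe sets, or 4.19%, did so. Against MSP1 alone 40 of the 96 were called, against MSP2 alone 27, and 51 had passed the filter through MSP3 alone. Of the 39 lower ones, 24 lay below all 4 others, where 575 of all tested, or 3.11%, did, and 27 were called against MSP2 alone.

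**Figure D2:**
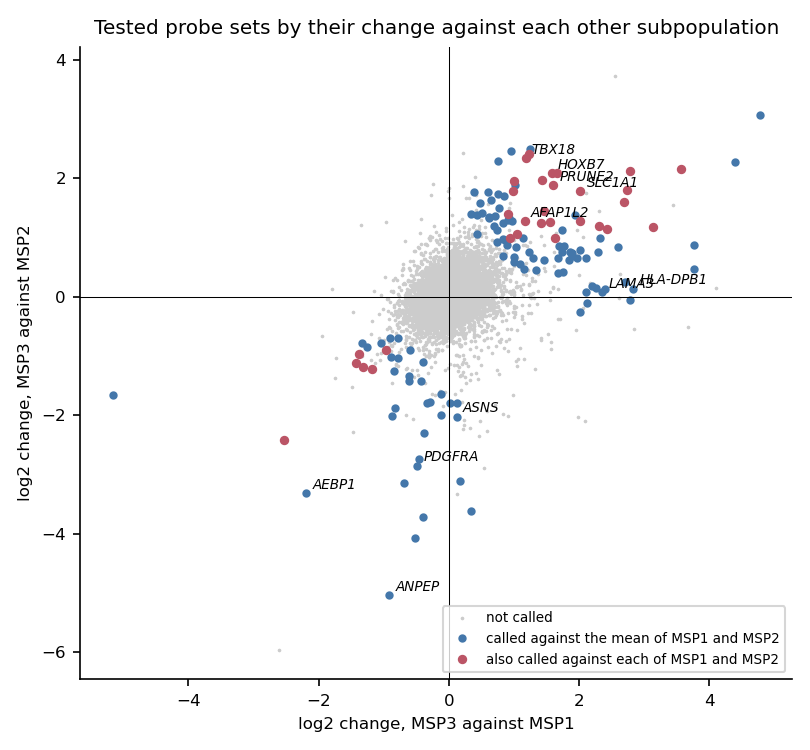
Log2 change of MSP3 against MSP1 (x axis) and against MSP2 (y axis) for each of the 18479 tested probe sets; grey points were not called, blue points were called against the mean of MSP1 and MSP2, and red points were also called against each of them. The 25 higher and 6 lower red points lie in the upper right and lower left, and both axes use the same MSP3 arrays, which by itself draws points along the diagonal.

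Among genes with a symbol, 40 of 3925 were called (1.02%), 31 higher (0.79%) and 9 lower (0.229%). A further 7 genes were called on a dimmer probe set alone, 4 higher and 3 lower, and are left out of these counts. Against MSP1 39 genes were called (0.994%), 33 higher (0.841%) and 6 lower (0.153%), and against MSP2 62 (1.58%), 35 higher (0.892%) and 27 lower (0.688%). Both MSP3 arrays lay above all others in 177 genes (4.51%) and below in 123 (3.13%). Names came in part from a table that lists first what its authors had called against CD24hi; of the 3111 genes named by a row outside those first ones, 16 were called, 11 higher and 5 lower.

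Set apart in MSP3 were 5 genes (0.127%), all of them higher. PRUNE2 passed the filter on both sides with its brighter probe set, and HOXB7, SLC1A1, TBX18 and AFAP1L2 passed it through MSP3 alone, so these 4 had to differ and are given as a description. HOXB7, a homeobox factor of body axis patterning, read 158.5 on MSP3 a and 166 on MSP3 b. On MSP1 it read 51.9 and 56.8, and on MSP2 31.9 and 45.4. The groups did not overlap, and HOXB7 rose 3.57-fold against the mean of the others (change 1.84 ± 0.13, adjusted p = 0.00712), 2.99-fold against MSP1 and 4.27-fold against MSP2. It was the only one of 4 tested HOX genes that was called, beside 0.79% of all genes called higher. All 4 had a change above 0, with a list median of 0.11.

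TBX18, a T-box factor of developing epicardium and ureter mesenchyme, read 137 and 131 in MSP3, 72.4 and 48.4 in MSP1, and 31.3 and 22.4 in MSP2. It was highest in both MSP3 arrays, intermediate in MSP1 and dim in MSP2. The rise was 3.38-fold against the mean (1.76 ± 0.14, adjusted p = 0.00766), 2.26-fold against MSP1 and at least 4.18-fold against MSP2 (2.34 ± 0.16, adjusted p = 0.00491). MSP1 in turn exceeded MSP2 by 1.16 ± 0.16 (adjusted p = 0.0221), which orders the 3 subpopulations as MSP3, MSP1 and MSP2 for this gene.

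SLC1A1, a high-affinity transporter of glutamate and cysteine, read 205 and 122 in MSP3. It read 44.5 and 34.3 in MSP1 and 62.8 and 33.8 in MSP2, so the other 2 subpopulations overlapped each other and lay below MSP3. The rise was 3.72-fold against the mean (1.90 ± 0.14, adjusted p = 0.00712), 4.04-fold against MSP1 and 3.43-fold against MSP2.

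PRUNE2, a protein with a BCH domain listed on the array under an older symbol, read 306 and 459 in MSP3 against 142 and 108 in MSP1 and 100 and 103 in MSP2. Both of its tested probe sets were called, with changes of 1.74 and 1.88, and on the brighter one the rise was 3.34-fold (1.74 ± 0.20, adjusted p = 0.0219). The dimmer probe set of PRUNE2 passed the filter through MSP3 alone, so it had to differ and adds no support. AFAP1L2, an adaptor of SRC and PI3-kinase signalling, read 63.3 and 70.1 in MSP3 against 32.6 and 27.2 in MSP1 and 32.1 and 23.6 in MSP2. It lay near the dim limit, at least 2.08-fold higher in MSP3 (1.22 ± 0.15, adjusted p = 0.0262). MSP1 and MSP2 differed in neither gene beyond the test (0.28 ± 0.23 and 0.11 ± 0.17, adjusted p = 0.606 and 0.803).

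The HOXB7 and SLC1A1 calls were lost without MSP3 a (changes of 1.71 to 1.96 and 1.79 to 2.01 over the left-out arrays), and the TBX18 call without MSP3 b. PRUNE2 lost its call without MSP2 a or MSP3 b (1.36 to 2.12), and AFAP1L2 without MSP2 b or either MSP3 array (0.97 to 1.47), as well as with quantile normalization or an intensity trend.

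The sequence just before the transcription start is shown for these genes because the same rule set them apart in MSP3, and to let their base composition be seen. RefSeq promoter sequences of GRCh38.p14 matched 4 of the 5 genes. Each line gives the 250 bases before the start, 5′ to 3′ on the strand of the gene, with CG dinucleotides in capitals; for PRUNE2 the start of its more CG-rich entry is used.
AFAP1L2 (chr10:114404503-114404752, minus strand): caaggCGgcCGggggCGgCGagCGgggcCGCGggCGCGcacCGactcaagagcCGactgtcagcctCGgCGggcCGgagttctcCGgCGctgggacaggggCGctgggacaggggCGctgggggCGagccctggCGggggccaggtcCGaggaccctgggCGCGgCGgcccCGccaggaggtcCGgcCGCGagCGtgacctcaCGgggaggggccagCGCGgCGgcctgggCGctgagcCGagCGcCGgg
PRUNE2 (chr9:76906115-76906364, minus strand): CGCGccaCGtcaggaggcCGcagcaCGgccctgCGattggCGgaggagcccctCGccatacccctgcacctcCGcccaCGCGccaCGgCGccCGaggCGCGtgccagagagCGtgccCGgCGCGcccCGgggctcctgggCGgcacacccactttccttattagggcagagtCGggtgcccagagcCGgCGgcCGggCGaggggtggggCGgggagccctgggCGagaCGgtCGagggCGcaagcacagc
SLC1A1 (chr9:4490218-4490467, plus strand): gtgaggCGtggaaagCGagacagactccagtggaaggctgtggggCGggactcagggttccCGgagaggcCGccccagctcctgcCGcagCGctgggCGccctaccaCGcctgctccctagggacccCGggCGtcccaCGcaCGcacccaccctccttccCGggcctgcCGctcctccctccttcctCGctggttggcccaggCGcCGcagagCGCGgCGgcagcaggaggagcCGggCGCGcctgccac
TBX18 (chr6:84764599-84764848, minus strand): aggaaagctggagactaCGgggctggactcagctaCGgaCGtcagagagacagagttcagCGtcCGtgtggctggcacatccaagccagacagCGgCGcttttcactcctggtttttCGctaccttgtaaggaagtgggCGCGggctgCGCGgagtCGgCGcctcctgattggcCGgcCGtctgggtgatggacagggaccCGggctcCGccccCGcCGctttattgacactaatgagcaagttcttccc
The AFAP1L2 window held 37 CG dinucleotides at a GC content of 81.6%, that of PRUNE2 held 32 at 76.4%, that of SLC1A1 24 at 74.4%, and that of TBX18 20 at 61.6%. The second PRUNE2 entry, at another start, held 4 at 48%. Over 35116 such windows the median was 11 CG dinucleotides and a GC content of 58%, and 93.9% held at least 1. AFAP1L2 exceeded 96% of windows in its count, PRUNE2 90.5%, SLC1A1 76.3% and TBX18 67.6%. The count describes the windows and says nothing of what acts on them.

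Of the 31 called rises, 12 had been taken as the widest among those with MSP3 outside all other arrays, and 2 of them were matrix proteoglycans. VCAN, versican, a large chondroitin sulfate proteoglycan, read 963 and 1149 in MSP3, 550 and 717 in MSP2 and 272 and 295 in MSP1. The arrays of the 3 subpopulations did not overlap, and VCAN rose 2.50-fold against the mean (1.32 ± 0.11, adjusted p = 0.00892), with a called rise against MSP1 (1.89 ± 0.13) and not against MSP2 (0.74 ± 0.13, adjusted p = 0.0666). Of its 4 tested probe sets 3 were called, at changes of 1.29 to 1.41, and the fourth changed by 1.17.

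DCN, decorin, a small proteoglycan that binds collagen fibrils, was bright, at 6034 and 4134 in MSP3 against 3426 and 2726 in MSP1 and 2518 and 1493 in MSP2. It rose 2.05-fold (1.04 ± 0.13, adjusted p = 0.0269), with a called rise against MSP2 (1.37 ± 0.15) and not against MSP1 (0.71 ± 0.15, adjusted p = 0.144). Of the 5 DCN probe sets 4 were called, between 1.04 and 1.28, while the fifth changed by 0.13 (adjusted p = 0.743).

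Proteoglycans as a list had 10 tested members of 20, with 2 called higher and 0 lower against the mean and a median change of 0.11. Over all genes 0.79% were called higher and 0.229% lower. Fibrillar collagens had 0 of 4 called and a median of 0.02, and the other collagens 0 of 6 and 0.23. COL3A1, the brightest fibrillar collagen, read 11370 and 6927 in MSP3 against 6117 to 11940 elsewhere (0.09 ± 0.11, adjusted p = 0.826). COL8A1 changed by 0.16 ± 0.11 and the elastic fibre gene FBLN5 by 0.07 ± 0.12, so neither was set apart from the spread. Of 14 genes of collagen modification, led by P4HB at 0.15 ± 0.11, 0 were called by limma, as were 0 of 10 elastic fibre genes and 0 of 10 matrix proteases and inhibitors, whose brightest member TIMP1 changed by 0.22 ± 0.12. These counts are of calls against the mean. Against MSP2 alone, COL6A3, a chain of collagen VI, was called higher (2.01 ± 0.29, adjusted p = 0.034), as was LTBP2, a microfibril protein (1.09 ± 0.14, adjusted p = 0.0246). Called lower against MSP2 were SDC2, a syndecan (-1.35 ± 0.15, adjusted p = 0.0166), SRGN, serglycin (-1.17 ± 0.17, adjusted p = 0.0363), and MMP2, a gelatinase (-0.97 ± 0.14, adjusted p = 0.034). These 5 were named after their values were seen, beside 0.892% of genes called higher and 0.688% called lower against MSP2. Without either MSP3 array the VCAN call was lost, and the DCN call was lost without any single MSP2 or MSP3 array and with quantile normalization, at 0.96 to 1.12 over the left-out arrays.

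**Figure D3:**
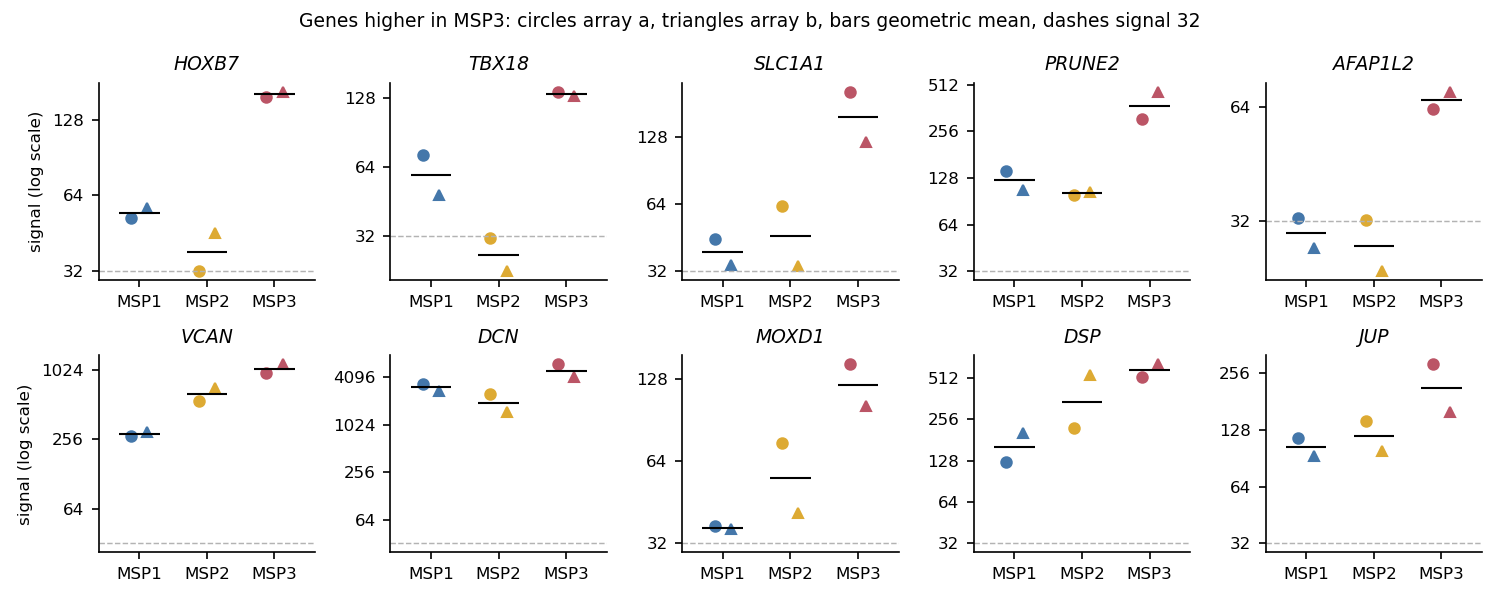
Signal of 10 genes higher in MSP3 on each array (log scale, circles array a, triangles array b), with the geometric mean of each subpopulation as a bar and the dim limit of 32 as a dashed line. In the 5 genes of the top row both MSP3 arrays lie above all others; below them VCAN, DCN, MOXD1 and JUP do so too, while for DSP array b of MSP2 (536) exceeds array a of MSP3 (525).

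DSP and JUP, a pair of junction genes of epithelial cells, were also called higher in MSP3. DSP, desmoplakin, which ties desmosomes to keratin filaments, read 525 and 646 in MSP3, 221 and 536 in MSP2 and 125 and 204 in MSP1. Within each letter MSP3 was highest, although array b of MSP2 exceeded array a of MSP3. DSP rose 2.48-fold (1.31 ± 0.20, adjusted p = 0.0482), with a called rise against MSP1 (1.86 ± 0.23, adjusted p = 0.0256) and not against MSP2 (0.76 ± 0.23, adjusted p = 0.236). JUP, plakoglobin, a desmosome and adherens junction plaque protein, read 284 and 158 in MSP3 against 116 and 92.4 in MSP1 and 143 and 98.2 in MSP2, and rose 1.91-fold (0.94 ± 0.14, adjusted p = 0.0451). It was called neither against MSP1 (1.03 ± 0.16, adjusted p = 0.05001) nor against MSP2 (0.84 ± 0.16, adjusted p = 0.0754). These were 2 of 7 tested members of the epithelial adhesion list, whose median was 0.14 with 4 of 7 changes above 0, beside 0.79% of all genes called higher, while 19 of its 26 members with a named probe set were not tested because they stayed under 64.

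For several genes MSP3 overlapped with MSP2, and MSP1 was low. KRT5, a keratin of basal epithelium, read 423 and 252 in MSP3 and 528 and 289 in MSP2, against 98.3 and 66.1 in MSP1. It rose 1.84-fold against the mean (0.88 ± 0.12, adjusted p = 0.0352), 4.05-fold against MSP1 (2.02 ± 0.13, adjusted p = 0.0029), and changed by -0.26 ± 0.13 against MSP2 (adjusted p = 0.504). The arrays of MSP3 and MSP2 overlapped, and all 4 lay above MSP1.

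LAMA3, the alpha chain of laminin-332, read 68.1 and 109.7 in MSP3 and 61.1 and 110.4 in MSP2, against 14.7 and 19.5 in MSP1. Its rise against MSP1 was at least 2.70-fold (2.35 ± 0.15, adjusted p = 0.00256), and its change against MSP2 was 0.07 ± 0.15. HLA-DPB1, a beta chain of the class II antigen-presenting molecules, read 92.9 and 118 in MSP3 and 96.3 and 93.9 in MSP2, against 13.2 and 16.5 in MSP1, at least 3.27-fold higher than MSP1 (2.83 ± 0.15, adjusted p = 0.00181). CD24, the marker of the sorted epithelial cells, read 89.4 and 95.8 in MSP3, 87.3 and 129 in MSP2, and 29.6 and 16.8 in MSP1. On that probe set it was called against MSP1 (2.05 ± 0.30, adjusted p = 0.0444) and not against the mean (0.93 ± 0.26, adjusted p = 0.282), while a dimmer CD24 probe set was called against the mean (1.01, adjusted p = 0.0412). Both CD24 probe sets passed the filter through MSP3 alone and thus had to differ.

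DSP and LAMA3 lost their calls against the mean without MSP2 a or either MSP3 array, JUP and KRT5 without any single MSP2 or MSP3 array, and HLA-DPB1 without either MSP3 array. Quantile normalization ended the calls of DSP and JUP, and a filter on the mean of all 6 arrays, arithmetic means in the filter or the mean of the probe sets of a gene that of DSP. With signals under 32 raised to 32, LAMA3 was not called against the mean, and the changes against MSP1 were 1.43 for LAMA3 and 1.71 for HLA-DPB1.

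The remaining wide rises had varied functions. MOXD1, FAR2, INA and BAMBI, like LAMA3, HLA-DPB1 and CD24 above, passed the filter through MSP3 alone. MOXD1, a monooxygenase related to dopamine beta-hydroxylase, read 145 and 102 in MSP3, 74.6 and 41.4 in MSP2 and 37.0 and 36.1 in MSP1. It rose 2.70-fold (1.43 ± 0.17, adjusted p = 0.0262) and was called against MSP1 (1.74 ± 0.20) but not against MSP2 (1.13 ± 0.20, adjusted p = 0.0662). FAR2, a fatty acyl-CoA reductase, read 99.9 and 89.3 in MSP3 against 53.9 and 66.7 in MSP2 and 25.6 and 23.1 in MSP1, and rose 2.48-fold. Both genes were thus ordered MSP3, MSP2 and MSP1 by level, and FAR2 too was not called against MSP2 (0.66 ± 0.16, adjusted p = 0.154).

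INA, alpha-internexin, a neuronal intermediate filament protein, had the same order, with 83.9 and 108 in MSP3, 73.1 and 69.8 in MSP2 and 26.5 and 30.2 in MSP1. It rose 2.12-fold against the mean (1.08 ± 0.13, adjusted p = 0.0258) and at least 2.98-fold against MSP1, with 0.42 ± 0.15 against MSP2 (adjusted p = 0.319). TTC28, a tetratricopeptide repeat protein, read 260 and 151 in MSP3 against 121 and 102 in MSP1 and 101 and 69.5 in MSP2, and TSPAN13, a tetraspanin, 468 and 257 against 204.5 and 108 in MSP1 and 244 and 173 in MSP2. TTC28 rose 2.06-fold (1.04 ± 0.14) and TSPAN13 1.99-fold (0.99 ± 0.13). For TTC28 and TSPAN13 array a was the higher in each subpopulation, and MSP3 exceeded both others by their arrays. TTC28 was called against MSP2 (1.25 ± 0.16, adjusted p = 0.0232) and not against MSP1 (0.84 ± 0.16, adjusted p = 0.112). TSPAN13 was called against MSP1 (1.23 ± 0.15, adjusted p = 0.0277) and not against MSP2 (0.75 ± 0.15, adjusted p = 0.0929).

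BAMBI, a decoy receptor that dampens BMP and TGF-beta signals, read 98.1 and 77.6 in MSP3, 72.8 and 44.3 in MSP1 and 42.2 and 28.9 in MSP2. It rose 1.96-fold (0.97 ± 0.12, adjusted p = 0.0296), as the only called gene of 5 tested members of the BMP list, whose median was -0.01, beside 0.79% of all genes called higher. BAMBI was called against MSP2 (1.32 ± 0.14, adjusted p = 0.0142) and not against MSP1 (0.62 ± 0.14, adjusted p = 0.181). TMSL8, a thymosin beta-like gene named as listed on the array, read 465 and 187 in MSP3, 235 and 129.9 in MSP1 and 77.4 and 46.7 in MSP2. It rose 4.90-fold against MSP2 (2.29 ± 0.17, adjusted p = 0.00506), while its change against MSP1 was 0.75 ± 0.17 (adjusted p = 0.18). The other 12 called rises lay between 0.74 and 1.12, and among them were SIRPA, a membrane receptor for CD47, at 0.84, and ADA, adenosine deaminase, at 0.95, both picked here after their values were seen. FAR2, MOXD1 and INA lost their calls without either MSP3 array, INA also without MSP2 b, TSPAN13 without MSP2 a or either MSP3 array, TTC28 and BAMBI without any single MSP2 or MSP3 array, and TMSL8 against the mean without MSP3 a. Quantile normalization ended the calls of BAMBI and TSPAN13, an intensity trend that of BAMBI, and the mean of the probe sets of a gene that of TTC28.

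Fewer genes were lower in MSP3, 9 by their brightest probe set, and 6 of them lay below all 4 other arrays. AEBP1, PDGFRA, AHRR, ABCA6, ANPEP and KCNK2 passed the filter through MSP1 and MSP2 alone and thus had to differ. AEBP1, a secreted collagen-binding protein of connective tissue, read 9.92 and 45.9 in MSP3, 73.1 and 129.7 in MSP1 and 210 and 214 in MSP2. All 4 other arrays were above both MSP3 arrays, although the MSP3 arrays themselves stood far apart. Against MSP1 alone AEBP1 was not called (-2.19 ± 0.44, adjusted p = 0.134). The fall was at least 4.49-fold against the mean (-2.75 ± 0.38, adjusted p = 0.0403) and at least 6.63-fold against MSP2. It was -1.86 and not called without MSP3 a, -3.64 without MSP3 b, and -1.91 with signals under 32 raised to 32.

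PDGFRA, a receptor of platelet-derived growth factors on mesenchymal cells, read 60.4 and 46.7 in MSP3, 60.4 and 91.6 in MSP1 and 487 and 302 in MSP2. MSP3 and MSP1 were nearly level on array a, and MSP2 was far above both. The change was -1.67 ± 0.25 against the mean (adjusted p = 0.0482), -2.85 ± 0.29 against MSP2 (adjusted p = 0.012) and -0.49 ± 0.29 against MSP1 (adjusted p = 0.603). Of 12 tested growth factor receptors and ligands it was the only one called, beside 0.229% of all genes called lower, and the list median was -0.11.

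CCND2, a D-type cyclin of the G1 phase, had the same pattern, with 128 and 79.9 in MSP3, 134 and 145 in MSP1 and 665 and 697 in MSP2. The change was -1.61 ± 0.18 against the mean (adjusted p = 0.0236), -2.75 ± 0.21 against MSP2 (adjusted p = 0.00506) and -0.46 ± 0.21 against MSP1 (adjusted p = 0.509). Among the 9 cyclins and CDK inhibitors tested it was the only call, beside 0.229% of all genes called lower, and the list median was -0.06.

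AHRR, the repressor of the aryl hydrocarbon receptor, read 41.5 and 37.6 in MSP3, 117 and 76.3 in MSP1 and 78.8 and 64.6 in MSP2. It fell 2.08-fold (-1.06 ± 0.13, adjusted p = 0.0292) and differed from MSP1 (-1.26 ± 0.15, adjusted p = 0.0263), in contrast with the genes that were high in MSP2. FRG1, a gene with near-identical copies that the probes may not tell apart, read 550.3 and 614 in MSP3 against 934 to 1149 elsewhere and fell 1.74-fold (-0.80 ± 0.12, adjusted p = 0.0482). ABCA6, a lipid transporter of the ABC family, read 51.6 and 46.9 against 71.5 to 102 and fell 1.69-fold (-0.75 ± 0.11, adjusted p = 0.0449). AHRR was not called against MSP2 (-0.85 ± 0.15, adjusted p = 0.0689), nor ABCA6 against MSP1 (-0.60 ± 0.13, adjusted p = 0.147). FRG1 was called neither against MSP1 (-0.90 ± 0.14, adjusted p = 0.05001) nor against MSP2 (-0.69 ± 0.14, adjusted p = 0.087).

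PDGFRA lost its call without MSP2 a or either MSP3 array, CCND2 without MSP3 b, and AHRR, FRG1 and ABCA6 without any single MSP2 or MSP3 array. Quantile normalization ended the calls of AEBP1, PDGFRA, AHRR, FRG1 and ABCA6, a filter on the mean of all 6 arrays those of PDGFRA, FRG1 and ABCA6, arithmetic means in the filter that of PDGFRA, an intensity trend that of ABCA6, and the mean of the probe sets of a gene those of PDGFRA and FRG1.

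The other 3 lower genes were high in MSP2 and overlapped with MSP1. ANPEP, aminopeptidase N, a surface peptidase, read 21.9 and 55.9 in MSP3, 39.1 and 111 in MSP1, and 1086 and 1216 in MSP2. MSP3 was 32.8-fold below MSP2 (-5.04 ± 0.31, adjusted p = 0.00473, or -4.41 without MSP2 a and -5.67 without MSP2 b), and its change against MSP1 was -0.91 ± 0.31 (adjusted p = 0.378). ASNS, asparagine synthetase, read 571 and 927 in MSP3, 547 and 816 in MSP1, and 2767 and 3177 in MSP2. It was 4.07-fold lower than MSP2 (-2.03 ± 0.16, adjusted p = 0.00506) and changed by 0.12 ± 0.16 against MSP1 (adjusted p = 0.816). Against the mean the change was -0.95 ± 0.14 (adjusted p = 0.0431), and the MSP3 and MSP1 arrays overlapped.

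Other members of the list of unfolded protein and amino acid stress genes were lower against MSP2 too. Of its 13 tested members, 3 were called lower against MSP2, beside 0.688% of all genes, and 0 against MSP1, with medians of -0.44 and 0.07. The 3 were ASNS, SLC7A5, an importer of large neutral amino acids, and PHGDH, which opens serine synthesis. SLC7A5 read 184 and 659 in MSP3, 191 and 553 in MSP1 and 620 and 1920 in MSP2 (-1.65 ± 0.14 against MSP2, adjusted p = 0.00609), and PHGDH changed by -1.18 against MSP2 (adjusted p = 0.0194). Against the mean neither passed.

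KCNK2, a background potassium channel, read 49.7 and 28.4 in MSP3, 64.6 and 34.7 in MSP1 and 165 and 102 in MSP2. It fell 2.09-fold against the mean (-1.06 ± 0.11, adjusted p = 0.0178) and 3.45-fold against MSP2, with -0.33 ± 0.13 against MSP1 (adjusted p = 0.438). The call against the mean was lost for ASNS and KCNK2 without any single MSP2 or MSP3 array, and for ANPEP without either MSP3 array. Quantile normalization also ended that of ASNS. With no filter on signal and an intensity trend together, a setting chosen after the values were seen, the calls of ABCA6, AFAP1L2, AHRR, BAMBI, FAR2, INA, JUP, KCNK2 and LAMA3 against the mean were lost.

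**Figure D4:**
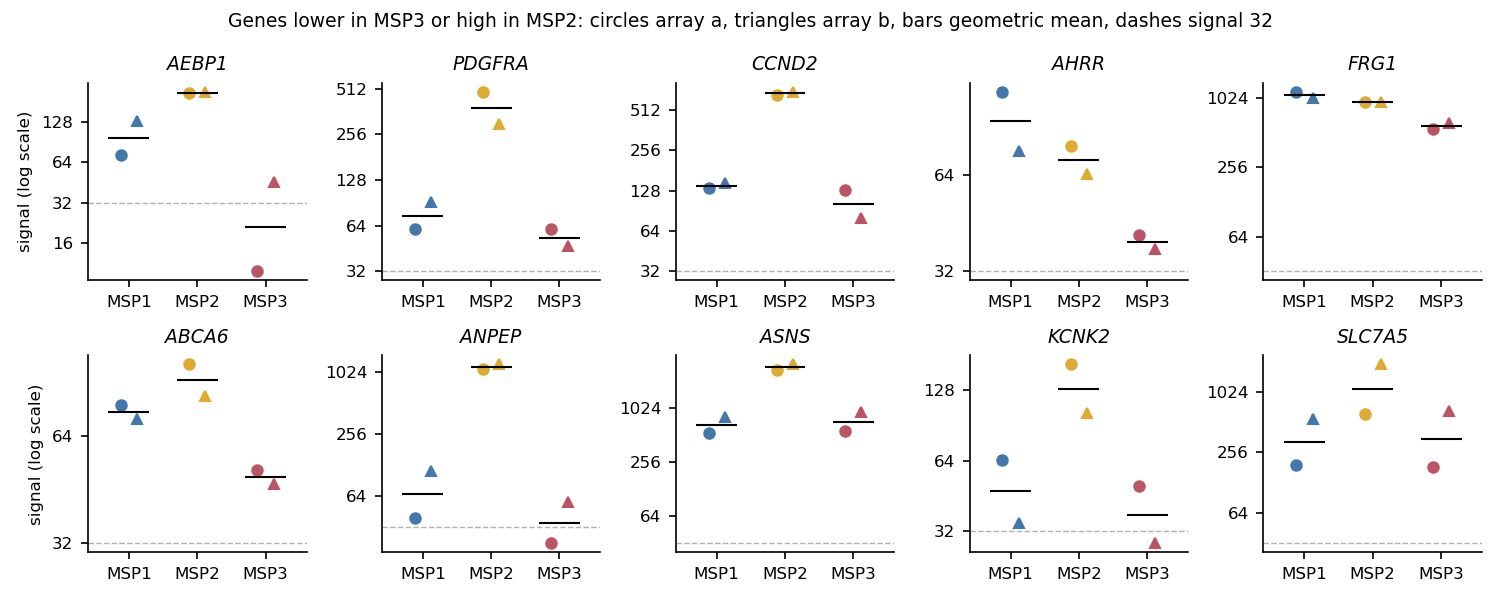
Signal of 10 genes on each array (log scale, circles array a, triangles array b), with the geometric mean of each subpopulation as a bar and the dim limit of 32 as a dashed line. The first 6 have both MSP3 arrays below all others, while ANPEP, ASNS, KCNK2 and SLC7A5 are high in MSP2 with MSP3 and MSP1 overlapping; SLC7A5 was not called against the mean of MSP1 and MSP2.

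A few genes fell against 1 of the other subpopulations without a call against the mean. Of these, PTPRZ1 and ANK2 passed the filter through MSP1 and MSP2 alone, so they had to differ and are given as a description. LOC440338, named as listed on the array, read 76.3 and 211 in MSP3 and 85.1 and 159 in MSP2, against 320 and 601 in MSP1, and fell 3.45-fold against MSP1 (-1.79 ± 0.18, adjusted p = 0.0111). PTPRZ1, a receptor tyrosine phosphatase, read 12.9 and 127 in MSP3 against 79.8 and 307.5 in MSP1, with an adjusted p just under the threshold (-1.95 ± 0.30, adjusted p = 0.04999) and -1.30 once signals under 32 were raised to 32. In each subpopulation its array b was far above its array a.

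ANK2, ankyrin-B, a membrane scaffold protein, read 16.6 and 38.6 in MSP3 and 261 and 250.4 in MSP2, at least 7.99-fold lower (-3.33 ± 0.39, adjusted p = 0.0187). Without MSP2 a the change was -2.54, and without MSP2 b it was -4.13. MSP1 was at 12.3 and 44.3, so the level of ANK2 in MSP3 overlapped with that in MSP1. The PTPRZ1 call was lost without any single MSP2 or MSP3 array, with quantile normalization, with either other filter (the mean of all 6 arrays, or arithmetic means) and with the mean of the probe sets of a gene. Also lost were the LOC440338 call without MSP3 a and the ANK2 call without either MSP3 array.

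Next to the threshold on the lower side were 6 genes not called against the mean, with changes from -0.82 to -0.66 and adjusted p from 0.0504 to 0.0598. NDRG1, a stress-responsive gene, read 222 and 219.7 in MSP3 against 272 to 457 elsewhere (-0.66 ± 0.11), and was called against MSP2 (-1.02 ± 0.12, adjusted p = 0.01905). CSTA, cystatin A, read 283 and 167 against 184 and 134 in MSP1 and 1275 and 689 in MSP2 (-0.82 ± 0.13), and was called against MSP2 (-2.11 ± 0.15, adjusted p = 0.00491). FAT, a large cadherin named as listed, changed by -0.73 ± 0.11, FLJ39349 by -0.73 ± 0.12, TMEM204 by -0.81 ± 0.12, and SLC7A5, called against MSP2 as given above, by -0.77 ± 0.12. FAT was called against MSP1 (-0.88 ± 0.13, adjusted p = 0.0448) and TMEM204 against MSP2 (-1.29 ± 0.14, adjusted p = 0.0161), while FLJ39349 was called against neither. TMEM204 passed the filter through MSP1 and MSP2 alone and thus had to differ.

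Most gene lists held no call against the mean. Of 41 lists, 10 had a called member and 28 had a median change above 0, against a median of 0.01 over all 3925 genes. The highest median was that of neural adhesion, channel and synapse genes, 0.43 over 9 tested members, with 4 of them above all other arrays and 1, KCNK2, called lower. Over all genes 4.51% lay above all other arrays and 0.229% were called lower, and 2 of these 9 members passed the filter on one side only. The lists of cell division lay on the other side. Of 21 mitosis genes, 2 had a change above 0, the median was -0.21, and 0 were called by limma. Against MSP1 that median was -0.28 and against MSP2 -0.15, and PTTG1, the securin gene and the brightest member, changed by 0.01 ± 0.12. DNA replication genes had a median of -0.06 over 26 tested members, and TYMS, thymidylate synthase, changed by -0.08 ± 0.11.

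**Figure D5:**
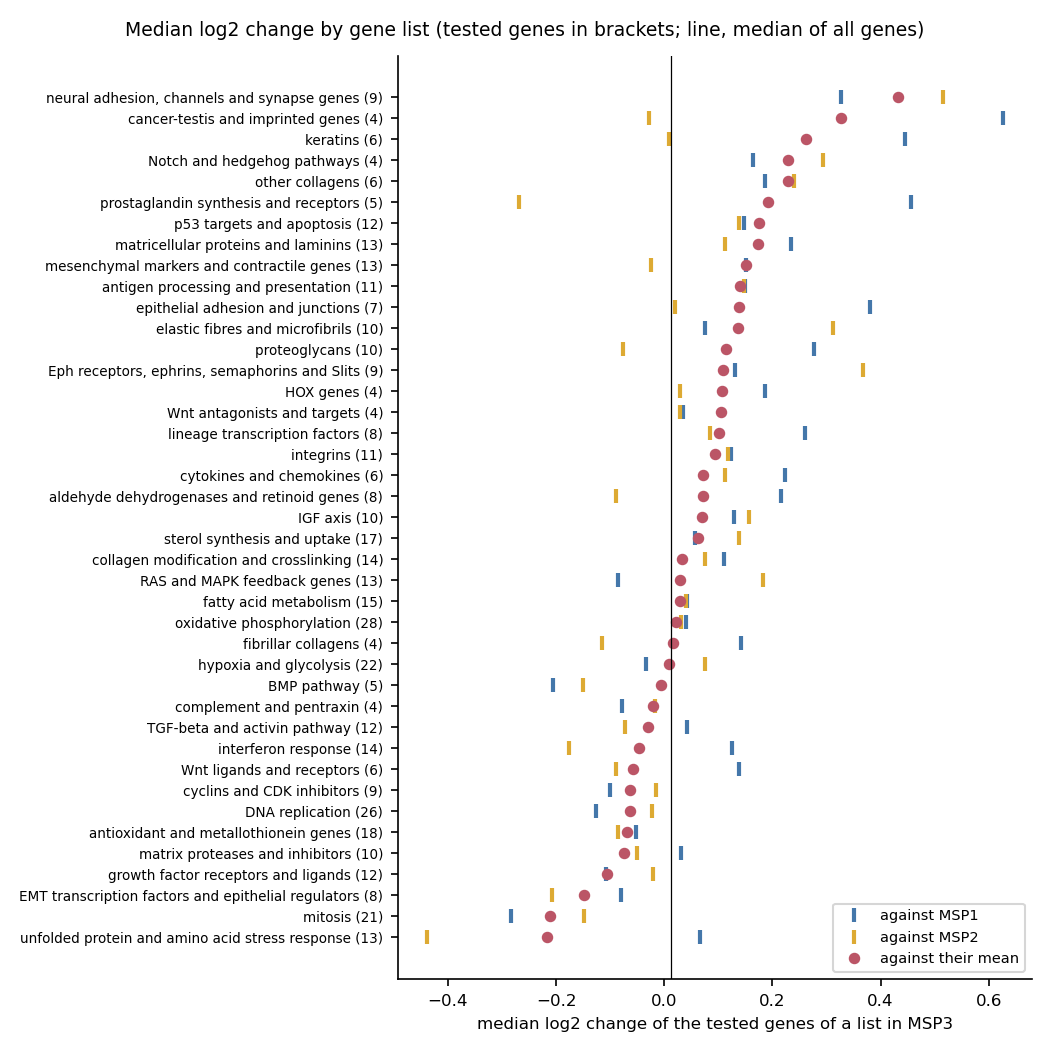
Median log2 change in MSP3 of the tested genes of each of 41 lists, against the mean of MSP1 and MSP2 (red points), against MSP1 (blue ticks) and against MSP2 (yellow ticks), with the number of tested genes in brackets and the median of all genes, 0.01, as a vertical line. The medians run from -0.22 for the unfolded protein and amino acid stress list to 0.43 for the neural list, and the 3 sets of medians share the MSP3 arrays.

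Transcription factors of the epithelial-mesenchymal transition had 0 of 8 tested members called and a median of -0.15, led in signal by FOXC2 (-0.11 ± 0.12). Lineage transcription factors had 0 of 8 called and a median of 0.10, with NR2F1 at 1736 and 1667 in MSP3, 2330 and 1968 in MSP1 and 1231 and 1212 in MSP2. Integrins (0 of 11 called, ITGB1 at 0.14 ± 0.11), Wnt ligands and receptors (0 of 6, FZD6 at -0.09 ± 0.12), TGF-beta and activin genes (0 of 12, FSTL1 at 0.05 ± 0.16) and the IGF axis (0 of 10, IGFBP7 at 0.18 ± 0.17) had medians between -0.06 and 0.09. These counts too are against the mean. Against MSP2 alone the growth factor gene IGF2 was lower (-1.23 ± 0.13, adjusted p = 0.0143), beside 0.688% of all genes called lower there. Among 14 interferon response genes 0 were called against the mean and 1, IFI44L, was higher against MSP1 (1.02 ± 0.15, adjusted p = 0.0442). Over all genes 0.841% were called higher against MSP1, and 2 of these 14 genes passed the filter on one side only. IFITM2 read 1345 and 758.5 in MSP3, within the range of 757.8 to 2033 of the other arrays. Antigen processing genes had 0 of 11 called, a median of 0.14 and B2M at 0.11 ± 0.11. HLA-DPB1, described above, was called against the mean but was not a member of that list.

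Metabolic lists had medians near 0. Oxidative phosphorylation had a median of 0.02 over 28 tested genes, hypoxia and glycolysis 0.01 over 22, sterol synthesis 0.06 over 17 and fatty acid metabolism 0.03 over 15, with 0 called against the mean in each by limma. NDRG1, of the hypoxia list, was lower against MSP2 as given above, beside 0.688% of all genes called lower there. LDHA, lactate dehydrogenase A, changed by 0.08 ± 0.12, COX4I1 by 0.05 ± 0.11, FDPS by 0.12 ± 0.11 and SCD by 0.08 ± 0.11. A p that misses the threshold with 2 arrays a group does not show that levels were equal, and the SE of these changes marks what could be seen.

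No gene name was at hand for 53 of the 96 higher and 27 of the 39 lower probe sets, including all 6 probe sets set apart downward. The probe set 227759_at read 72.3 and 124 in MSP3 against 413 to 687 on the other arrays and fell 5.56-fold (change -2.48 ± 0.11, adjusted p = 0.00272), with like changes against MSP1 (-2.52) and MSP2 (-2.43). The probe set 206018_at was dim in MSP3 and at least 3.46-fold lower than the mean of the others (adjusted p = 0.017), called against MSP1 and not against MSP2. On the other side, 223423_at read 119 and 91.1 in MSP3 against 1.24 to 19.1 elsewhere, at least 3.25-fold higher (adjusted p = 0.0314), and 230130_at read 171 and 267 against 5.95 to 56.7, at least 6.67-fold higher (adjusted p = 0.0352). Both were called against MSP1 and not against MSP2, and both passed the filter through MSP3 alone. The probe set 206018_at passed it through MSP1 and MSP2 alone. These probe sets had to differ and are given as a description, while 227759_at passed on both sides.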

How the data were processed

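Biotin-labelled RNA from HMLE cells was measured on single-colour arrays, per the labels' protocols. The values used were the authors' deposited probe set signals, a linear intensity per probe set and array. The submitters' processing notes name limma and Affymetrix Expression Console; the algorithm, its settings and the build are not stated in the labels or headers. The deposited signals were kept as scaled. A second deposited file, the authors' table of log2 fold changes, average log2 levels and p-values against CD24hi, per the file headers, gave gene names only; it lists 16382 probe sets, the first 2256 of them called in all 3 of its comparisons, so names favour those. Probe sets with several symbols were left unnamed. Of the symbols of tested probe sets, 4565 were current in RefSeq, 627 were updated and 173 kept as listed.

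After 62 control probe sets were left out, a model of log2 signals without offset was run in limma 3.58.1 under R 4.3.3, with terms for MSP1, MSP2 and MSP3 and the letter as a block (2 residual and 4.67 prior degrees of freedom), two-sided. Arrays were grouped and lettered by title. The b minus a differences of the subpopulations correlated at 0.70 for MSP1 and MSP2, 0.67 for MSP1 and MSP3 and 0.81 for MSP2 and MSP3 across tested probe sets, which are not independent; the pairing comes from the titles alone. Probe sets were tested at a geometric mean signal of 64 or more on either side. The fit was tested on simulated data.

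Named were 11 check genes, the 12 widest called rises and falls with MSP3 outside the other arrays (filled up by smallest p), from each of 41 lists up to 2 called genes a direction by size of change, or its brightest member if none was called, and the 2 widest rises and falls against MSP1 and against MSP2. The comparison, its lists and its tests were chosen with earlier results of these data known. Alternatives changed the block, the filter, a floor on dim signals, the normalization, the moderation, the arrays in the fit and the probe set of a gene, and left out each array.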

Additional observations from a re-analysis of the deposited data

How the results depend on the processing

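The counts depended on the replicate block: without pairing by letter, 0 probe sets were called against the mean, 0 against MSP1, 1 against MSP2, and 0 were set apart in MSP3, against 135, 138, 193 and 31 with it. With no filter on signal, and with all 8 arrays in the fit, all 4 counts were 0 by limma; in the CD24hi arrays the b minus a difference correlated at -0.30 to -0.42 with those of the MSP groups. Pooling MSP1 and MSP2 left 1 call against the mean. A filter on the mean of all 6 arrays gave 82 against the mean and 88 against MSP1, quantile normalization 81 and 77 with 17 set apart, and an intensity trend 362 against MSP2 and 47 set apart. Leaving out each array in turn gave 14 to 634 calls against the mean, 38 to 812 against MSP1, 31 to 767 against MSP2, and 7 to 166 set apart; a lone array was then assumed to vary like the other groups. Arithmetic means in the filter, the floor at 32 and, chosen after seeing the data, no filter with an intensity trend kept each count within 1.5 times. For the background comparisons, without the block 7 calls were made for MSP1 against the rest, 1 for MSP2 against the rest and 6 between both, against 232, 348 and 347; with no filter or all 8 arrays 0; with a trend 428, 639 and 746; and with an array left out 120 to 1056, 34 to 1054 and 73 to 1140. Of 36 calls of named genes, 0 were kept without the block, with no filter or with 8 arrays, 23 under quantile normalization, 33 with a trend, 35 with the floor, 8 without MSP3 a, 10 without MSP3 b, 20 and 23 without MSP2 a and b, and 36 without either MSP1 array; 0 changed direction. Background correction could not be varied on processed signals. The causes were not tested. Dim probe sets, at least 57.6% of each array, limit what can be seen.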

Other observations

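The CD24hi arrays, left out of the comparison, place the genes of MSP3 on a wider scale, as values with no test. Except for HOXB7 and CCND2, the genes below were named by rows the authors had called against CD24hi in every comparison. A gap between these genes and CD24hi was thus largely set by how they were named. Of the 5 genes set apart, TBX18 read 12.3 and 5.32 on CD24hi a and b, SLC1A1 7.28 and 1.86, and PRUNE2 16.8 and 8.28, all within the dim range, so their signal in MSP3 lay above both CD24hi arrays. HOXB7, at 96.9 and 114 there, lay between MSP3 and the other MSP arrays, and AFAP1L2, at 306 and 115, lay above MSP3. DCN read 28.6 and 11.4 and VCAN 122 and 36.3. The junction and basal genes called higher in MSP3 against the mean of MSP1 and MSP2 were far brighter in CD24hi: DSP read 8765 and 4664, JUP 2228 and 1858, KRT5 8243 and 7244 and LAMA3 10790 and 4160. Of the genes lower in MSP3, PDGFRA read 8.44 and 1.72, and CCND2 1258 and 3646, above all MSP arrays. Between the CD24hi arrays 24.9% of the tested probe sets differed over 2-fold, against 6.67% between those of MSP3.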
